A study of Mus musculus with 24 samples.

Results

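Isl1, Sim1, Tcf21, Msc, Lhx2 and Lbx1 encode transcription factors known from the progenitors of head and tongue muscle, and their transcripts were measured here in the dental mesenchyme of mouse molar tooth germs. These 6 genes, of 56748 in the read count table, were picked by name with their higher level in the buccal part of the germ in view. Their difference between the buccal and the lingual part is therefore given as a description, without a test, and tests are given only for the changes with stage and with culture. RNA was sequenced from mandibular first molar germs of ICR mice, an outbred stock for which no transgene or treatment is named, at the cap stage (E13) and the bell stage (E15). Mesenchyme was isolated with dispase II, an enzyme used to free epithelium from mesenchyme, either from the undivided germ (Cap-W and Bell-W) or after a needle cut into a lingual part on the tongue side (Cap-L and Bell-L) and a buccal part on the cheek side (Cap-B and Bell-B). Lingual and buccal parts of cap stage germs were also kept in culture for 2 days (Cap-L+2D and Cap-B+2D). Each of the 8 groups had 3 libraries, 24 in all. Embryos were collected from 3 pregnant mice according to the methods, which speak of sequencing in triplicate and also of a pair of biological replicates. Neither statement says whether the 3 libraries of a group came from separate animals, so p-values measure the spread between libraries, which may be technical.

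Muscles of the jaw, face and throat arise from pharyngeal mesoderm, whereas tongue muscle and limb muscle arise from precursors that leave the somites and migrate. In the pharyngeal arches, Isl1 (a LIM homeodomain factor), Tcf21 and Msc (related basic helix-loop-helix factors, also called capsulin and MyoR) and Lhx2 (a LIM homeodomain factor) act in progenitors before the myogenic regulators Myf5, Myod1 and Myog are switched on, and Tcf21 and Msc act together in the masticatory muscles of the first arch. Lbx1 is a homeobox factor of migrating precursors, including those of the tongue, and Sim1 is a basic helix-loop-helix PAS factor. None of these genes is exclusive to muscle: Isl1, Lhx2, Sim1 and Lbx1 are also known from neurons, Isl1 and Lhx2 from epithelia, and Tcf21 from mesenchyme of several organs.

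Sequencing depth lay between 20581720 and 39266497 reads assigned to genes per library. Levels are given as CPM, counts per 1000000 assigned reads after scaling by TMM (trimmed mean of M values) factors, and 3 reads in a library correspond to 0.0764 to 0.146 CPM, the level up to which a gene may be missed. All 8 markers of dental mesenchyme, among them Msx1 and Pax9, were detected in every group, with a summed level of 1962 to 3870 CPM per library. Epithelium markers, among them Epcam and Cdh1, summed to 31.1 to 32.6 CPM in Cap-B+2D and to 304 CPM or more in every library of the other 7 groups. The library Bell-W replicate 3 stood apart: its summed epithelium markers were 1854 CPM against 462 and 540 CPM in the other Bell-W libraries, and its summed neuron markers were 150 CPM against 21.8 and 24.8 CPM. In these bulk samples a smaller number of cells of a type and a smaller amount of RNA per cell cannot be told apart.

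All 6 genes had their highest group mean in a buccal group, but they did not share one order of levels. Per kilobase of exon, which allows levels to be compared between genes, Msc ranked first in 7 of the 8 groups, with 17.9 CPM per kb in Cap-B+2D, 10.1 in Bell-B and 1.56 in Cap-B. Isl1 followed in these buccal groups with 9.22, 3.87 and 1.33 CPM per kb. The other 4 genes stayed below 1 CPM per kb in every group: Sim1 reached 0.891 in Bell-B, Tcf21 reached 0.853 in Cap-B+2D, Lhx2 reached 0.426 in Cap-B+2D and Lbx1 reached 0.372 in Bell-B. Msc and Isl1 rested on 427 to 1694 reads per library in Bell-B and Cap-B+2D, whereas Lbx1 had at most 30 reads in any library.

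**Figure D1:**
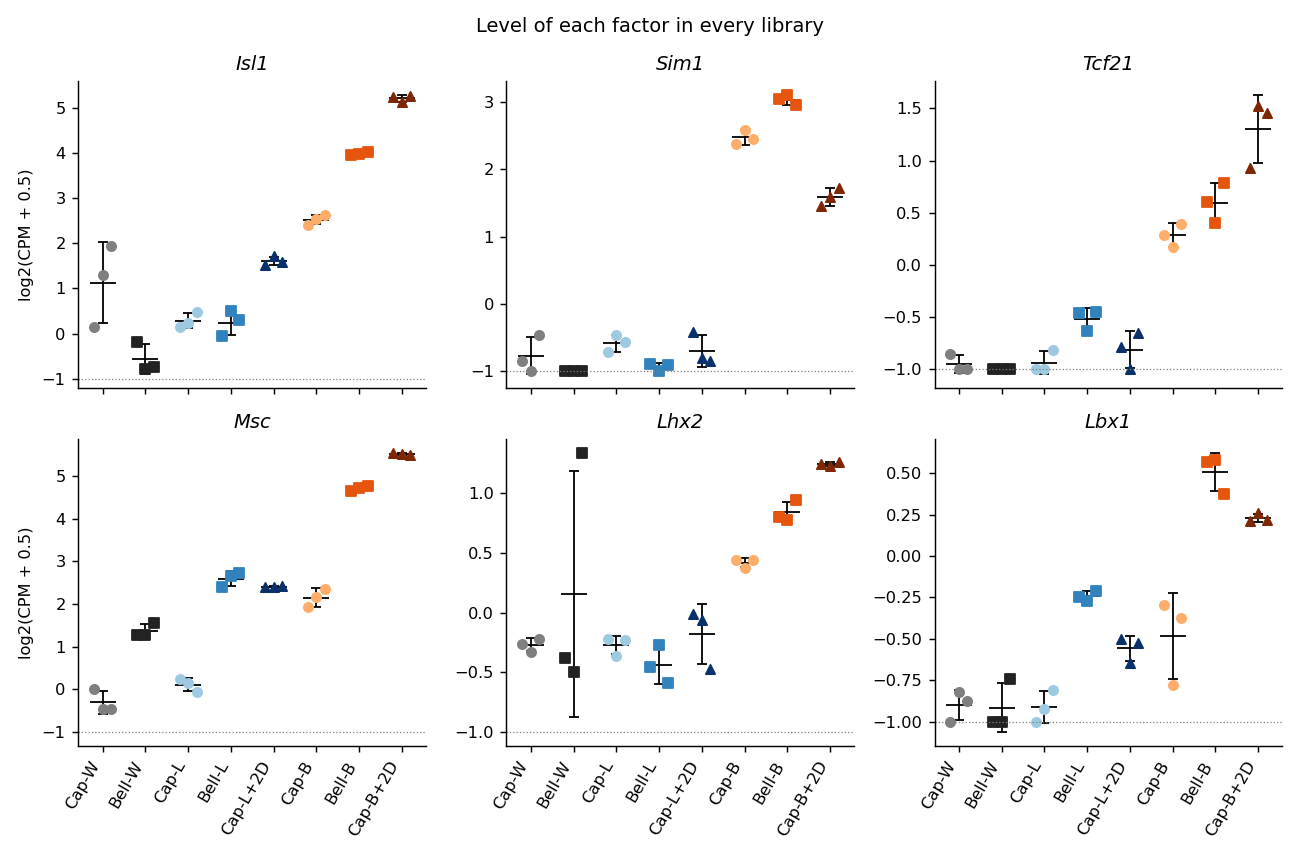
Level of the 6 factors in each of the 24 libraries as log2(CPM + 0.5), by group. Points are libraries, horizontal bars are group means with SD (n = 3), and the dotted line marks a level of 0; the vertical axes differ between genes. Buccal groups (orange to brown) lie above their lingual partners (blue) for each gene, and a lone Bell-W library is high for Lhx2.

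Isl1 (ENSMUSG00000042258, chromosome 13, 116434817 to 116446225, minus strand, GRCm39) was read at 4.83, 5.27 and 5.68 CPM in the 3 Cap-B libraries and at 0.608, 0.668 and 0.883 CPM in Cap-L. In Bell-B it stood at 15.1, 15.2 and 15.7 CPM and in Bell-L at 0.456, 0.911 and 0.731 CPM. After culture it stood at 37.5, 34.3 and 37.7 CPM in the buccal and at 2.38, 2.77 and 2.51 CPM in the lingual part. The buccal and lingual libraries did not overlap at either stage or after culture. The ratio of pooled normalized counts was 7.38 at the cap stage (95% counting interval 5.67 to 9.74), 21.8 at the bell stage (16.8 to 28.8) and 14.3 after culture (12.5 to 16.4). These intervals, from the exact binomial distribution, cover counting error only.

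Sim1 (ENSMUSG00000019913, chromosome 10, 50770850 to 50865248, plus strand) had the widest buccal to lingual ratio of the 6 at the bell stage. Its level was 4.69, 5.52 and 4.98 CPM in Cap-B against 0.107, 0.223 and 0.177 CPM in Cap-L. At the bell stage 681 reads were counted over the 3 Bell-B libraries (7.71, 8.08 and 7.25 CPM) and 2 reads over the 3 Bell-L libraries, each of which was under the floor of 3 reads. Cultured buccal parts held 2.25, 2.51 and 2.78 CPM, and cultured lingual parts held 0.246, 0.0702 and 0.0553 CPM. The buccal over lingual ratio was 29.2 (17.8 to 51.7) at the cap stage, 321 (88.6 to 2659) at the bell stage and 22.3 (11.9 to 47.0) after culture. No read of Sim1 was counted in any Bell-W library, which allows up to 3 reads in each.

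The bases before the start of transcription are shown for Isl1 and Sim1, the pair of factors with the widest buccal to lingual ratio at the bell stage. They come from RefSeq on GRCm38.p6, an older build than the one above, and run 5′ to 3′ on the strand of the gene up to the last base before the start. Capitals mark E-boxes, the letters CANNTG to which basic helix-loop-helix factors bind. CANNTG and CAGCTG read the same on both strands, and every CAGCTG is also a CANNTG. The Isl1 window is chr13:116309689-116309938 on the minus strand and the Sim1 window is chr10:50895401-50895650 on the plus strand.
Isl1: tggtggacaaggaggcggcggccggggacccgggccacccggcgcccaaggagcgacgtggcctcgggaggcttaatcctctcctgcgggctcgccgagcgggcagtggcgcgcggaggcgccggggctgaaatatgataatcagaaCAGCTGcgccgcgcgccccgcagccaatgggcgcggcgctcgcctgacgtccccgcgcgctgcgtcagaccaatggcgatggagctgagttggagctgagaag
Sim1: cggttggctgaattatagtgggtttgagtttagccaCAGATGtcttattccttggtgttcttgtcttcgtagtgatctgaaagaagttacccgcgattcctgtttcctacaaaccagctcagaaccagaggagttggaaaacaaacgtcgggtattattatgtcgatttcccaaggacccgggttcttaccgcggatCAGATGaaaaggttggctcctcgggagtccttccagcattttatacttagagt
Isl1 carried a single E-box, CAGCTG, whose first letter lay 103 bases before the start. Sim1 carried CAGATG at 214 and at 53 bases before the start and no CAGCTG. The windows of Lhx2 and Tcf21 held neither, and Msc and Lbx1 were not analysed for sequence. Of all 32851 windows of this length in the table, 13% held CAGCTG and 66.2% held CANNTG.

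Tcf21 (ENSMUSG00000045680, chromosome 10, 22693180 to 22696073, minus strand) was low in every group. In Cap-B it was at 0.722, 0.628 and 0.817 CPM, while Cap-L held 2 reads in all, both in replicate 3. In Bell-B it was at 1.02, 0.818 and 1.22 CPM against 0.228, 0.146 and 0.233 CPM in Bell-L. Cultured buccal parts were at 1.40, 2.37 and 2.25 CPM, and cultured lingual parts at 0.0821, 0 and 0.138 CPM. No buccal library overlapped with the lingual libraries of its own stage, with ratios of 33.4 (8.80 to 283), 5.05 (2.99 to 9.05) and 24.98 (11.9 to 63.0).

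Msc (ENSMUSG00000025930, chromosome 1, 14823570 to 14826216, minus strand) differed from Tcf21, its partner in the first arch, in reaching several CPM on the lingual side too, at the bell stage and after culture. Its level was 3.29, 3.97 and 4.63 CPM in Cap-B and 0.680, 0.612 and 0.459 CPM in Cap-L. At the bell stage it was 24.7, 25.9 and 26.7 CPM in the buccal part and 4.79, 5.83 and 6.11 CPM in the lingual part. After culture the buccal libraries stood at 46.5, 45.3 and 44.8 CPM and the lingual ones at 4.80, 4.81 and 4.84 CPM. Bell-L and Cap-L+2D were thus above Cap-B for this gene in every library, and the buccal over lingual ratio was 6.83 (5.09 to 9.31), 4.60 (4.16 to 5.09) and 9.46 (8.56 to 10.5). Of its exon bases, 21.2% are shared with Gm9947, a long noncoding RNA on the opposite strand. The authors counted without strand, so reads from the 2 genes cannot be told apart there, while the exons of the other 5 genes overlap with no other gene.

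Lhx2 (ENSMUSG00000000247, chromosome 2, 38229293 to 38259745, plus strand) was present at a low level on both sides. Cap-B libraries held 0.858, 0.795 and 0.856 CPM and Cap-L libraries 0.358, 0.278 and 0.353 CPM. Bell-B libraries held 1.25, 1.21 and 1.42 CPM and Bell-L libraries 0.228, 0.328 and 0.166 CPM. After culture the buccal part was at 1.87, 1.85 and 1.90 CPM and the lingual part at 0.493, 0.456 and 0.221 CPM, so that no buccal library fell within the lingual range. The ratio was 2.57 (1.63 to 4.13) at the cap stage, 5.43 (3.36 to 9.22) at the bell stage and 5.05 (3.47 to 7.55) after culture. The highest Lhx2 level of all, 2.03 CPM, was not in a buccal library but in Bell-W replicate 3, against 0.269 and 0.209 CPM in the other Bell-W libraries. That library also held 35.6 CPM of the neuronal gene Stmn2 against 2.31 and 2.97 CPM, and 70.8 CPM of the epithelial gene Epcam against 23.0 and 23.3 CPM. Its Myog, at 1.29 CPM, compared with 1.12 and 0.460 CPM in the other Bell-W libraries. The part of these other cells in the Lhx2 level was not tested.

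Lbx1 (ENSMUSG00000025216, chromosome 19, 45221123 to 45224251, minus strand) had the fewest reads. Cap-B held 7, 2 and 7 reads (0.316, 0.0837 and 0.272 CPM) and Cap-L held 0, 1 and 2 reads, so the ratio of 6.85 had a counting interval of 1.96 to 36.7. Bell-B was at 0.984, 0.996 and 0.794 CPM against 0.342, 0.328 and 0.365 CPM in Bell-L, a ratio of 2.67 (1.73 to 4.23). Cultured buccal parts were at 0.659, 0.696 and 0.664 CPM and cultured lingual parts at 0.205, 0.140 and 0.193 CPM, a ratio of 3.74 (2.14 to 6.92). The buccal libraries again did not overlap with the lingual ones at any of the 3 comparisons, but Bell-L was above every Cap-B library.

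Across all genes, 10.4% were called higher in the buccal part at the cap stage, 6.00% at the bell stage and 12.5% after culture, where a call needs an adjusted p under 0.05 and a log2 fold change over 0.5 in edgeR's quasi-likelihood test. In 23.9%, 21.9% and 30.0% of genes, respectively, every buccal library was above every lingual library. All 6 factors had buccal libraries above all lingual ones in each of the 3 comparisons. Nothing is read from this, and no call is given for the factors here, since they were chosen on this difference.

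**Figure D2:**
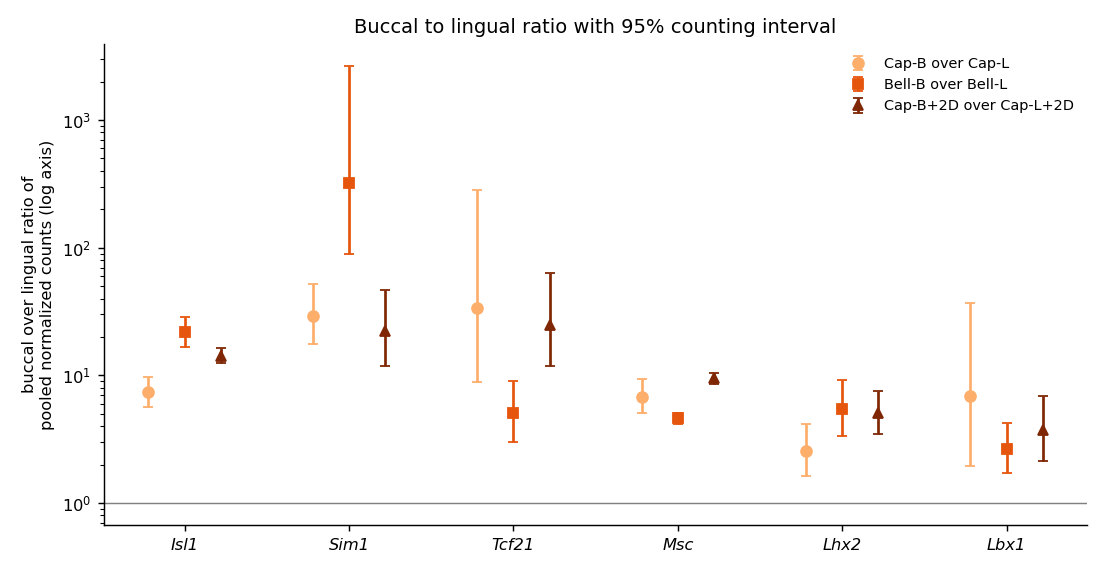
Buccal over lingual ratio of pooled normalized counts for the 6 factors at the cap stage, at the bell stage and after culture, on a log axis. Bars are 95% counting intervals and the line at 1 marks equal levels; the ratio for Sim1 at the bell stage, 321, rests on 2 lingual reads.

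With stage, the buccal part gained most of these transcripts. Between Cap-B and Bell-B, Msc rose by a log2 fold change of 2.68 ± 0.08 (SE; edgeR, Benjamini-Hochberg adjusted p = 2.49e-23), Lbx1 by 2.02 ± 0.35 (1.18e-05) and Isl1 by 1.53 ± 0.08 (9.37e-17). Sim1 rose by 0.59 ± 0.10 (1.15e-05) and Lhx2 by 0.62 ± 0.22 (0.0182). Tcf21 had a log2 fold change of 0.49 ± 0.28 and did not pass (adjusted p = 0.151), although each Bell-B library was at or above 0.818 CPM and each Cap-B library at or below 0.817 CPM. All 6 genes passed the filter and 5 were called, against 18.7% of all genes tested in either direction. Lbx1, with 7, 2 and 7 reads in Cap-B, passed the filter on the reads of Bell-B and Cap-B+2D, where it is higher. Its call is therefore not independent of the filter. The call for Lhx2 was lost without Cap-B replicate 2 (log2 fold change 0.58, adjusted p = 0.0580), without Bell-B replicate 3 (0.54, 0.0721) and with DESeq2 (0.63, 0.0676), and with all 24 libraries in 1 fit neither Lhx2 (0.63, 0.396) nor Sim1 (0.60 ± 0.26) passed.

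Culture of the buccal part for 2 days was followed by a rise of 5 factors and a fall of Sim1. Msc rose by 3.49 ± 0.08 on the log2 scale (adjusted p = 3.40e-28) and Isl1 by 2.77 ± 0.07 (5.35e-26). Lbx1 rose by 1.55 ± 0.37 (0.000430), Tcf21 by 1.42 ± 0.24 (4.05e-06) and Lhx2 by 1.14 ± 0.20 (6.78e-06). Sim1 fell by 1.04 on the log2 scale (SE 0.12, adjusted p = 6.79e-09), from 5.07 ± 0.421 CPM in Cap-B to 2.51 ± 0.267 CPM in Cap-B+2D (SD, n = 3). All 6 were called, against 34.5% of all genes tested, and every call held in each of the 11 other settings. Lbx1 again passed the filter on the groups where it is higher. Bell-B and Cap-B+2D were both compared with the same Cap-B libraries, and the difference between the 2 changes was not tested.

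**Figure D3:**
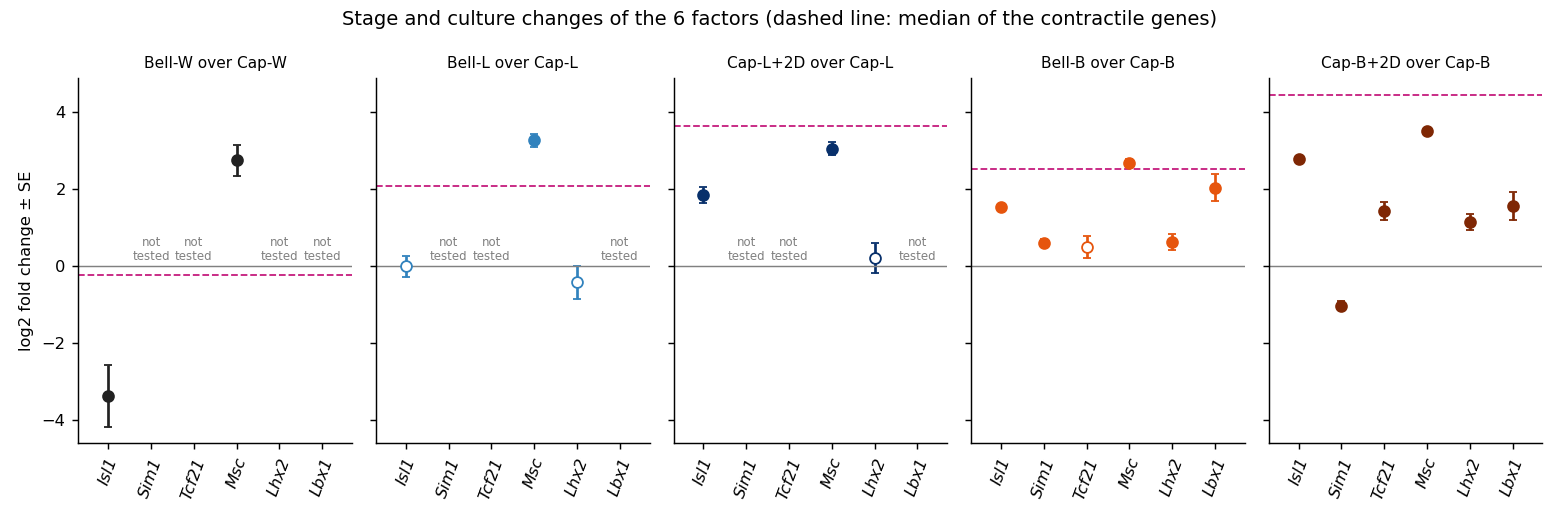
Log2 fold change with SE of the 6 factors between the stages and between cultured and uncultured parts. Filled points were called, open points were tested and not called, and the dashed line is the median of the contractile genes. Msc lies far above 0 in all 5 comparisons, and Sim1 lies below 0 in the cultured buccal part, where the contractile median is 4.43.

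In the lingual part the factors went separate ways. Msc rose by 3.26 ± 0.17 on the log2 scale between Cap-L and Bell-L (edgeR, adjusted p = 2.93e-14) and by 3.04 ± 0.17 between Cap-L and Cap-L+2D (6.76e-14). Isl1 rose with culture, by 1.84 ± 0.21 (2.82e-08), from 0.720 ± 0.144 to 2.56 ± 0.199 CPM. Between Cap-L and Bell-L, by contrast, Isl1 had a log2 fold change of -0.02 ± 0.27 (adjusted p = 0.966), and the ratio of its pooled counts had a counting interval of 0.680 to 1.42. Lhx2 passed in neither comparison, with -0.43 ± 0.43 at the bell stage (0.427) and 0.20 ± 0.38 after culture (0.665). Only Isl1, Msc and Lhx2 passed the filter on low counts here. Of all genes tested, 20.0% were called between Cap-L and Bell-L and 35.4% between Cap-L and Cap-L+2D, and both comparisons share the Cap-L libraries. The difference between the lingual and the buccal change was not tested for any factor.

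Sim1, Tcf21 and Lbx1 were too low in the lingual part for the filter and are given by their reads. Lbx1 went from 3 reads in Cap-L to 29 in Bell-L, a ratio of 10.6 (3.30 to 54.6), and to 16 in Cap-L+2D, a ratio of 5.52 (1.58 to 29.6). Tcf21 went from 2 reads to 17 in Bell-L, a ratio of 9.35 (2.22 to 83.4), and to 7 in Cap-L+2D, where the interval of 0.690 to 35.8 includes 1. Sim1 went the other way at the bell stage, from 16 reads to 2, a ratio of 0.138 (0.0153 to 0.585), and had 10 reads in Cap-L+2D. With no filter on low counts, Lbx1 (log2 fold change 3.24, adjusted p = 3.53e-05), Tcf21 (2.99, 0.00531) and Sim1 (-2.66, 0.0184) were called between Cap-L and Bell-L, which brings the count there from 1 to 4. On the same terms Lbx1 was called between Cap-L and Cap-L+2D (2.34, 0.0120).

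In the undivided mesenchyme, Msc and Isl1 moved in opposite directions with stage. Msc had 9, 7 and 5 reads in Cap-W (0.318 ± 0.158 CPM) and 50, 46 and 75 reads in Bell-W (2.09 ± 0.288 CPM), a rise of 2.73 ± 0.41 on the log2 scale (edgeR, adjusted p = 0.00430). Isl1 was at 0.612, 1.94 and 3.31 CPM in Cap-W and at 0.385, 0.0837 and 0.0969 CPM in Bell-W. It fell by 3.38 on the log2 scale (SE 0.80, adjusted p = 0.0267), with no overlap between the libraries. This call was lost without Cap-W replicate 2 (log2 fold change -3.39, adjusted p = 0.0636), without Cap-W replicate 3 (-2.78, 0.0921), without Bell-W replicate 2 (-3.05, 0.105) and without Bell-W replicate 3 (-3.05, 0.0790). The 3 Cap-W libraries, in which Isl1 spread most, had 439, 334 and 509 CPM of summed epithelium markers and 26.7, 31.9 and 20.5 CPM of summed neuron markers, and the part of these cells in the Isl1 level was not tested. Only 2 of the 6 factors passed the filter, both were called, and 14.5% of all genes tested were called. Msc passed it mainly on its Bell-W reads and Isl1 mainly on its Cap-W reads, the group where each is higher. The filter thus favoured a call for both. With all 24 libraries in 1 fit Sim1 was also called lower in Bell-W (adjusted p = 0.0212), on 1, 0 and 5 reads in Cap-W and none in Bell-W, too few for a fold. Lhx2 did not pass the filter, and Sim1, Tcf21 and Lbx1 were at or under 5 reads in each undivided library, with no read of Tcf21 in Bell-W.

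The muscle transcripts themselves gave the scale for these changes. Of all genes tested, 12.0% rose and 6.73% fell with stage in the buccal part, 14.2% and 5.78% in the lingual part, and 10.3% and 4.21% in the undivided mesenchyme. With culture 17.9% rose and 16.6% fell in the buccal part, and 19.6% and 15.9% in the lingual part. The muscle signal, the mean log2(CPM + 0.5) of 25 contractile genes such as Actc1, Acta1 and Myh3, ranged from 0.56 to 0.99 in the undivided and Cap-L libraries, stood at 2.39 to 2.50 in Bell-L, 2.81 to 2.88 in Cap-B and 3.53 to 3.64 in Cap-L+2D, and reached 4.86 to 4.95 in Bell-B and 6.70 to 6.78 in Cap-B+2D. Between Cap-B and Bell-B, all 24 contractile genes tested rose, with a median log2 fold change of 2.50. Between Cap-B and Cap-B+2D all 24 rose, with a median of 4.43, against -0.02 over all genes. In the lingual part 22 of 24 rose with stage (median 2.08) and 23 of 24 with culture (median 3.63). Ckm, among those tested, was at or under the floor in every Cap-L and Cap-B library. It passed the filter on groups where it is higher. In the undivided mesenchyme none of 20 tested rose by edgeR and 1, Myl4, fell, with a median of -0.24. At an unadjusted p under 0.05, 1 of them was higher and 4 were lower in Bell-W, and DESeq2 called 1 higher, Myh8, and 2 lower, Myl4 and Ryr1. Single contractile genes ranged from -1.35 to 2.32 on the log2 scale there. The rise of Msc between Cap-W and Bell-W thus stood beside few calls among the contractile genes, and the part of muscle cells in it was not tested.

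The factors differed in how closely they followed this signal over the 24 libraries. Pearson's r of log2(CPM + 0.5) with the muscle signal was 0.943 for Msc, 0.911 for Isl1, 0.889 for Tcf21, 0.870 for Lbx1, 0.717 for Lhx2 and 0.667 for Sim1. These values describe 24 libraries that fall into 8 groups of 3 and carry no p. In the 3 comparisons of sides, 23 of 23, 23 of 24 and 23 of 23 contractile genes tested were called higher in the buccal part. Of all genes, 10.4%, 6.00% and 12.5% were. Since the factors were chosen on that same difference, a high r over all libraries is in part fixed by the choice. Inside the groups, r of the deviations from the group means was -0.0160 for Isl1, 0.142 for Sim1, 0.215 for Msc, 0.320 for Tcf21, 0.386 for Lbx1 and 0.752 for Lhx2, and most of these values depended on Bell-W replicate 3. Without that library they were 0.159 for Isl1, 0.224 for Sim1, -0.0905 for Msc, 0.503 for Tcf21, 0.115 for Lbx1 and 0.0932 for Lhx2. Over the remaining 23 libraries, r of Lhx2 with the muscle signal was 0.873.

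**Figure D4:**
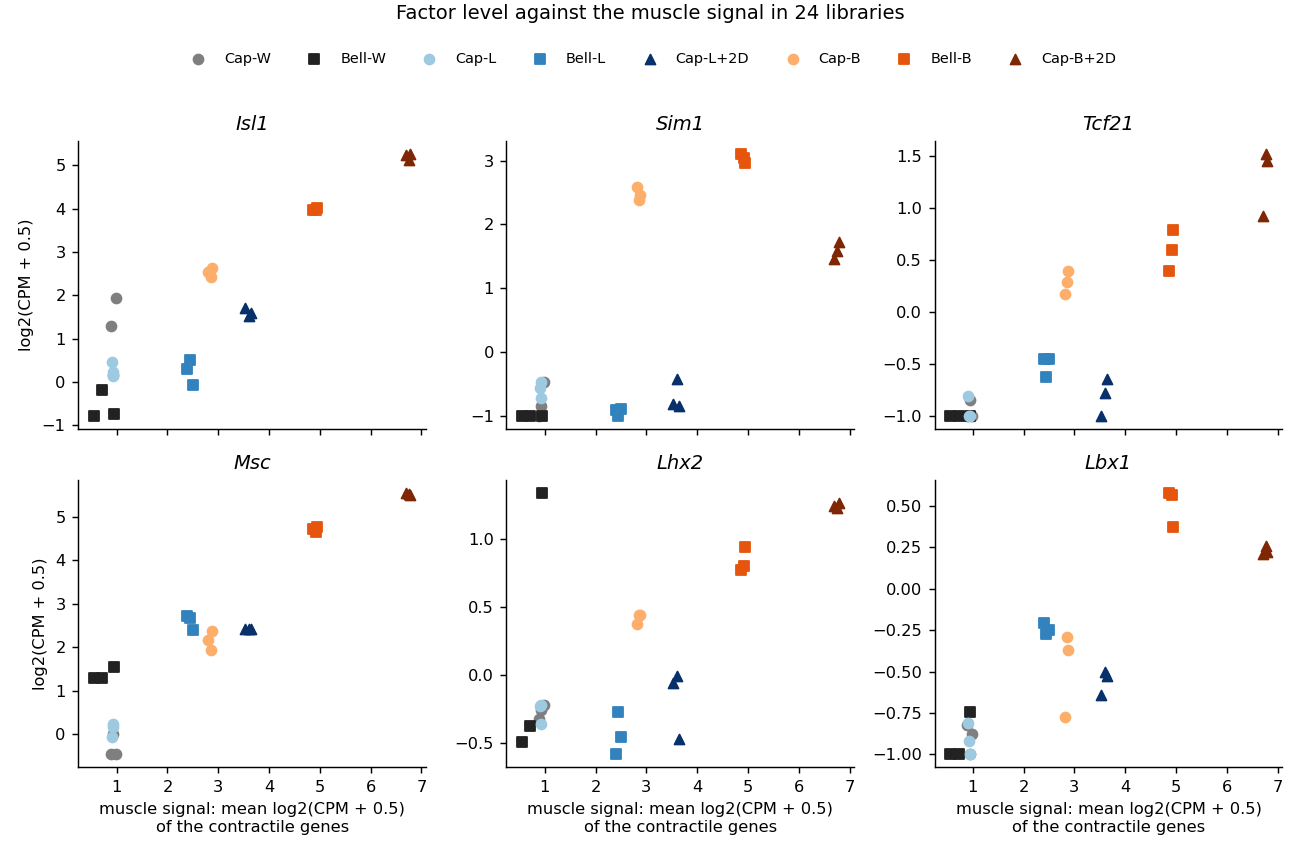
Level of each factor as log2(CPM + 0.5) against the muscle signal, the mean log2(CPM + 0.5) of 25 contractile genes, in 24 libraries coloured by group. Cap-L+2D libraries (dark blue triangles) lie to the right of Cap-B (light orange circles) but below them for Isl1, Sim1, Tcf21 and Lhx2, and Cap-B+2D lies below Bell-B for Sim1 and Lbx1.

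Several factors did not keep the order of the muscle signal between Cap-L+2D and Cap-B. Cap-L+2D libraries had a higher muscle signal than Cap-B libraries, yet they had 2.56 ± 0.199 against 5.26 ± 0.426 CPM of Isl1, 0.124 ± 0.106 against 5.07 ± 0.421 CPM of Sim1 and 0.0734 ± 0.0695 against 0.722 ± 0.0948 CPM of Tcf21. Lhx2 was at 0.390 ± 0.147 against 0.836 ± 0.0357 CPM, and for these 4 genes no library of one group fell within the range of the other. Msc, at 4.82 ± 0.0178 against 3.97 ± 0.668 CPM, was in the same order as the muscle signal, and Lbx1 overlapped between the groups. Single muscle genes went both ways between Cap-L+2D and Cap-B. Myod1 (8.44 against 13.2 CPM), Myf5 (1.33 against 1.95), Pax7 (2.32 against 3.78) and Ryr1 (15.9 against 26.8) were lower in Cap-L+2D. Actc1 (125 against 86.7 CPM), Acta1 (41.6 against 12.0) and Myh3 (85.3 against 44.8) were higher, and Myog was alike (23.6 against 23.1). These groups differ in side and in culture together, and they were not compared by a test.

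The genes whose levels ran closest to each factor were named among 17909 genes with a symbol and a mean of at least 1 CPM. For Isl1 they were Myh6 (r = 0.967), a cardiac myosin heavy chain, Ryr1 (0.963), the calcium release channel of skeletal muscle, and Bmpr1b (0.961), a BMP receptor. For Msc they were Sytl2 (0.984), Cryab (0.981), a small heat shock protein abundant in muscle, and Myh8 (0.978), the perinatal myosin heavy chain. For Lbx1 they were Tceal7 (0.964), Fgfr4 (0.937), a receptor of muscle progenitors, and Smpx (0.924), a small muscle protein. Tcf21 ran closest to 1110002E22Rik (0.965), Foxl2os (0.961) and Pitx3 (0.958), and Sim1 to Dgkb (0.947), Pcdh10 (0.929) and B130024G19Rik (0.916). Lhx2 ran closest to Rgs8 (0.927), Kndc1 (0.914) and Lhx9 (0.914), but without Bell-W replicate 3 its closest genes were Myh6 (0.965), Zic1 (0.963) and Ryr1 (0.958). Other factors changed neighbours without that library too. Myh8 left the 3 closest genes of Msc, Smpx those of Lbx1, Foxl2os and Pitx3 those of Tcf21, and B130024G19Rik those of Sim1. Isl1 kept its 3. Among the factors themselves, r was highest between Msc and Lbx1 (0.909) and between Isl1 and Tcf21 (0.904), and lowest between Sim1 and Msc (0.658).

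Other regulators of the same progenitors gave a mixed picture, and of 8 such genes Pax7 and Cxcr4 rose in all 4 comparisons of the lingual and buccal parts. Pax7, a factor of muscle precursors and satellite cells, was at 0.0845 CPM in Cap-L and 3.78 CPM in Cap-B (means, n = 3). It rose by 2.06 ± 0.09 on the log2 scale between Cap-B and Bell-B (edgeR, adjusted p = 7.95e-19) and by 3.20 ± 0.08 with buccal culture (3.43e-26). In the lingual part Pax7 rose by 4.78 ± 0.30 with stage (1.45e-12) and by 4.68 ± 0.31 with culture (9.94e-13). At 0.0706 to 0.111 CPM in Cap-L, it passed the filter there on the reads of Bell-L and Cap-L+2D, where it is higher. Its lingual calls are therefore not independent of the filter. Cxcr4, a chemokine receptor of migrating precursors that endothelium and blood cells also carry, rose by 0.57 to 2.56 on the log2 scale. Pax3, which acts upstream of Lbx1 and Met in migrating precursors and is also a neural crest gene, fell by 3.62 with stage in the buccal part (SE 0.13, adjusted p = 2.91e-21), by 0.90 in the lingual part (SE 0.09, 1.46e-08) and by 5.56 in the undivided mesenchyme (SE 0.67, 0.00188). With culture it rose, by 0.64 ± 0.07 in the buccal part (4.08e-09) and by 1.32 ± 0.07 in the lingual part (4.92e-14).

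The remaining partners are also known outside muscle, in dental mesenchyme or epithelium, and their lowest group mean was 7.90 CPM (Met in Cap-W). In the buccal part 4 of the 8 rose with stage (Cxcr4, Met, Pax7 and Tbx1) and 2 fell (Eya1 and Pax3), where 18.7% of all genes were called in either direction. With buccal culture 6 rose, the same 4 with Eya4 and Pax3, and Eya1 fell, where 34.5% of all genes were called. Tbx1, an upstream regulator of pharyngeal mesoderm, rose by 1.07 ± 0.06 with stage (adjusted p = 4.67e-16) and by 0.92 ± 0.06 with culture (9.04e-15) in the buccal part, and Met, the receptor that guides migrating precursors, rose by 0.97 ± 0.06 (4.62e-15) and 2.02 ± 0.05 (2.37e-25). The factor Six4 and its cofactors Eya1 and Eya4 all fell between Cap-L and Bell-L and between Cap-W and Bell-W, and with Pax3 they made up the 4 genes that fell in each of these comparisons (of 8 and 7 tested, where 5.78% and 4.21% of all genes fell). Upward calls there were Cxcr4, Pax7 and Tbx1 in the lingual part and Cxcr4 alone in the undivided mesenchyme. With lingual culture Cxcr4, Pax3 and Pax7 rose and Eya1, Six4 and Tbx1 fell, where 35.4% of all genes were called. Between the sides, Eya1 and Pax7 were higher in the buccal part in all 3 comparisons; Met was also higher there at the bell stage and after culture, and Tbx1 after culture. Lower in the buccal part were Eya4 at the cap stage, Eya4 and Pax3 at the bell stage and Cxcr4 after culture.

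**Figure D5:**
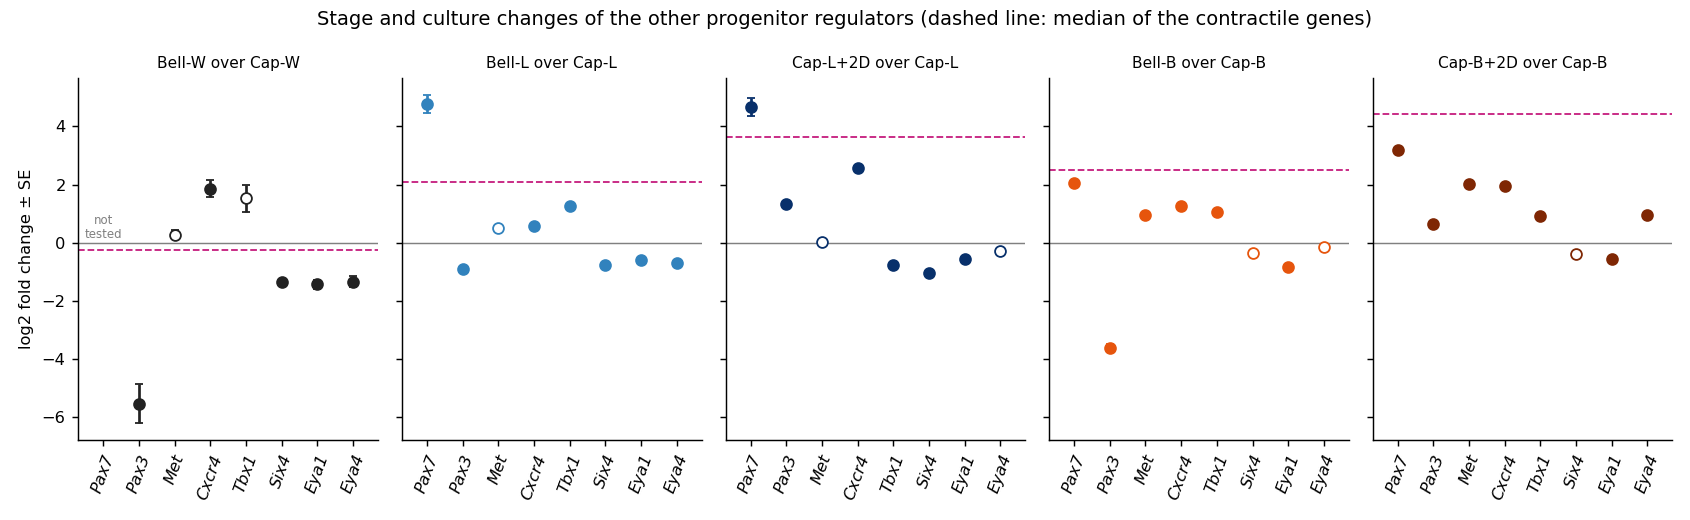
Log2 fold change with SE of 8 other regulators of muscle progenitors between the stages and between cultured and uncultured parts. Filled points were called, open points were not, and the dashed line is the median of the contractile genes. Pax7 and Cxcr4 rose in the 4 lingual and buccal comparisons, whereas Pax3 fell with stage and rose with culture.

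Downstream of the factors, most genes on the myogenic list followed the contractile genes. Besides regulators, the list of 10 holds Mymk and Mymx, which act in cell fusion, and Chrng, a receptor subunit. In the buccal part 7 rose with stage and 9 with culture. Mef2a, Mef2c and Mef2d were not called with stage there (log2 fold changes 0.07, -0.10 and -0.18). In the lingual part 6 of 9 tested rose with stage and 8 of 9 with culture, and Mef2c fell with stage. Myf5 and Mymx in Cap-L, and Myf6 in Cap-B, were at or under the floor in every library. These genes passed the filter on groups where they are higher. Myod1, a master regulator of muscle fate, stood at 0.477 CPM in Cap-L, 13.2 CPM in Cap-B and 33.4 CPM in Bell-B (means, n = 3). It rose by 1.33 ± 0.06 with stage (adjusted p = 1.81e-19) and by 3.00 ± 0.05 with culture (2.26e-31) in the buccal part, and by 3.47 ± 0.16 (4.49e-15) and 4.14 ± 0.15 (6.42e-18) in the lingual part. Myf5 rose with buccal culture by 3.29 ± 0.10 (7.68e-24) and Myog, which drives differentiation, by 3.65 ± 0.05 (1.98e-33). In the undivided mesenchyme none of the 5 tested was called by edgeR or DESeq2 (at an unadjusted p under 0.05, 1 was lower by edgeR, and 1 was higher and 1 lower by DESeq2), with -0.75 ± 0.67 for Myod1 (0.503) and -1.16 ± 0.45 for Myog (0.129). Between the sides 6 of 9 were higher in the buccal part at the cap stage, 7 of 10 at the bell stage and 8 of 10 after culture, against 10.4%, 6.00% and 12.5% of all genes. Mef2c was lower in the buccal part at the cap stage, by a log2 fold change of -0.61 ± 0.05 (adjusted p = 1.60e-08).

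Markers of other cells moved in the same comparisons as the factors. In buccal culture all 10 epithelium markers fell (median -3.31) and all 6 endothelium markers fell, including Pecam1 and Cdh5, where 16.6% of all genes fell. Of the 8 neuron markers tested there, 5 rose and 2 fell, with Tubb3 at 7.45 to 9.03 CPM in Cap-B and 28.2 to 31.2 CPM in Cap-B+2D. Summed neuron markers were 33.0 to 34.2 CPM in Cap-B, 30.7 to 32.5 CPM in Bell-B and 64.8 to 70.2 CPM in Cap-B+2D. Of the 7 glia markers, 5 fell with buccal culture and Erbb3, a receptor of glial precursors, rose by 1.65 ± 0.04 on the log2 scale (adjusted p = 1.69e-25). Of the 8 genes listed for muscle and connective tissue fibroblasts, 4 rose with buccal culture. The list holds Tcf4, which is not Tcf7l2, the fibroblast marker also known as TCF4. Tcf4 is among the genes counted as rising in both cultures.

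Lingual culture went with a fall of 7 of 10 epithelium, 2 of 6 endothelium and 4 of 7 glia markers, where 15.9% of all genes fell. Of the 8 neuron markers tested 5 fell and 2 rose there, 1 glia marker rose, and 6 of 8 connective tissue markers rose, where 19.6% of all genes did. With stage, 9 of 10 epithelium markers rose in the buccal part (median 0.76), 5 of 10 in the lingual part and 2 of 10 in the undivided mesenchyme. Endothelium markers rose in 6 of 6 between Cap-W and Bell-W (median 1.04), where 10.3% of all genes rose, and in 1 of 6 in each divided part. Connective tissue markers rose with stage in 3 of 8 in the buccal part, 5 of 8 in the lingual part and 3 of 7 in the undivided mesenchyme, and 1 fell in the buccal part and 1 in the undivided mesenchyme. Glia markers rose in 2, 3 and 1 of 7, in the same order. Of the neuron markers, 2 of 8 rose and 2 fell in the buccal part, 1 of 8 rose and 3 fell in the lingual part, and 1 of 6 fell in the undivided mesenchyme.

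Between the sides, 6 of the 7 glia markers were higher in the buccal part at the cap stage, where Sox10 was at 12.2 to 12.9 CPM against 4.06 to 4.70 CPM in Cap-L. The other glia marker, S100b, was lower there, with a log2 fold change of -1.58 ± 0.17 (adjusted p = 5.44e-07). At the bell stage 4 glia markers were higher and 1 lower, and after culture 3 of 5 were higher and 2 lower. Of the connective tissue markers, 6 of 7 tested were higher in the buccal part at the cap stage, among them Osr1 at 219 to 225 CPM against 80.5 to 87.0 CPM. At the bell stage 2 of 8 were higher and 1 lower, and after culture 4 of 8 were higher and 1 lower. Tcf4 is counted among the higher ones in each of these 3 comparisons. Neuron markers were higher in 1 of 7 and lower in 2 at the cap stage, higher in 2 of 6 at the bell stage and higher in 7 of 8 after culture. Epithelium markers were lower in the buccal part in 9 of 10 at the cap stage, 4 of 10 at the bell stage and 9 of 10 after culture, and endothelium markers in 5 of 6 after culture. Of all genes, 7.10%, 6.88% and 12.5% were lower in the buccal part in these 3 comparisons. The part of these cells in the levels of the 6 factors was not tested.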

How the data were processed

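RNA-seq libraries of isolated dental mesenchyme were analysed from the read count per gene that the authors deposited, which featureCounts 2.0.0 made from read pairs without strand on Ensembl release 107 (GRCm39), per the file headers. The submitters' processing notes list FastQC 0.12.1, Trimmomatic 0.39, Bowtie 1.2.3, Subread 2.0.3 and DESeq2 1.40.2, whereas the methods name a different aligner, and the labels and the methods name different library kits. Symbols were matched by Ensembl identifier to GENCODE M39 for 56017 of 56748 genes, and positions and exon overlaps come from that annotation. The depth of 20581720 to 39266497 counts per library sets the floor of 3 counts.

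Counts were fitted with edgeR 4.0.16 in R 4.3.3 (TMM, filterByExpr, quasi-likelihood test, Benjamini-Hochberg over all genes tested), and calls needed both an adjusted p below 0.05 and a log2 fold change beyond 0.5 in either direction. The undivided groups, the lingual groups and the buccal groups were fitted separately, and so was each pair of sides. Steps were tested on simulated data. DESeq2 1.42.0, other normalization, no filter, a replicate block, all libraries in 1 fit and each library left out were tried as alternatives. Replicates of every group differed by more than sampling noise, with a chi-square per degree of freedom of 1.32 to 9.84 between libraries of the divided parts and of 7.89 to 161 in the undivided mesenchyme.

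The 6 factors and the gene lists were chosen with earlier results of these data known. Named besides them were the called progenitor regulators, Myf5, Myod1, Myog, Actc1, Myh3, Acta1, the first 2 genes of each cell marker list and the 3 genes closest to each factor. Myl4, Myh8, Ryr1, Ckm, Myf6, Mymk, Mymx, Chrng, Mef2a, Mef2c, Mef2d, S100b, Erbb3 and Zic1 were named after their values were seen. Of the 10 progenitor regulators in the list, 2 are not reported here. Upstream sequences come from RefSeq for 4 of the 6 factors.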

Additional observations from a re-analysis of the deposited data

Results flagged for a closer look

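The change of Isl1 with stage ran in opposite directions in the undivided mesenchyme and in the buccal part. Between Cap-W and Bell-W its log2 fold change was -3.38, with every Bell-W library below every Cap-W library, and between Cap-B and Bell-B it was 1.53, with every Bell-B library above every Cap-B library. The difference between the 2 changes was not tested. The call in the undivided mesenchyme was lost on leaving out 4 of the 6 libraries in turn. Isl1 in Bell-W (0.188 ± 0.170 CPM) was also below both parts, Bell-L (0.700 ± 0.229) and Bell-B (15.3 ± 0.290). At the cap stage the Isl1 mean of Cap-W (1.95 CPM) lay between Cap-L (0.720) and Cap-B (5.26), with a spread of 0.612 to 3.31 CPM in Cap-W. Lbx1, near the floor, also lay between its parts. Msc, Sim1, Tcf21 and Lhx2 in Cap-W had means at or below those of Cap-L, with overlapping ranges. The muscle signal of Cap-W, 0.88 to 0.99, was near that of Cap-L (0.90 to 0.93) and far from Cap-B (2.81 to 2.88). The muscle signal was 0.56 to 0.94 in Bell-W, 2.39 to 2.50 in Bell-L and 4.86 to 4.95 in Bell-B. Bell-W therefore cannot be read as a mix of its parts for these transcripts. The cause was not tested.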

How the results depend on the processing

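Replicate numbers showed no pairing of the libraries, as the deviations of same-numbered libraries correlated by only -0.0466 to 0.0862. A pairing is not excluded, since some replicates of the divided parts differed by little more than sampling noise (chi-square per degree of freedom from 1.32). With the replicate block the fall of Isl1 between Cap-W and Bell-W was not called (log2 fold change -3.26, adjusted p = 0.0559), which leaves 1 of 6 factors called there, and the block changed no other call of a factor. Leaving out a library gave 1 to 2 factors called and 1758 to 3057 genes called between Cap-W and Bell-W (3037 with all 6 libraries, 5887 with all 24 libraries in 1 fit). Between Cap-L and Bell-L, 4 factors were called with no filter on low counts and 4 with all 24 libraries in 1 fit, and between Cap-B and Bell-B 3 were called with all 24. The log2 fold change of Isl1 between Cap-L and Bell-L, -0.02, ranged from -0.24 to 0.19 when a library was left out and turned positive without Cap-L replicate 3 (0.13) and without Bell-L replicate 1 (0.19). For Lhx2, r with the muscle signal was 0.606 without the 2 libraries farthest from its median (Cap-B+2D replicates 2 and 3) and 0.873 without Bell-W replicate 3, a setting chosen after seeing the data. With no limit on the fold, the genes called numbered 8746 (Cap-B over Cap-L), 7846 (Bell-B over Bell-L), 11569 (Cap-B+2D over Cap-L+2D), 10725 (Bell-L over Cap-L), 14126 (Cap-L+2D over Cap-L), 10557 (Bell-B over Cap-B) and 14768 (Cap-B+2D over Cap-B). The cause of these shifts was not tested. Of 181 values of summary counts and of r under other settings, 161 stayed within their limit. Depth limits Lbx1, Tcf21 and Sim1 on the lingual side, where a few reads decide each ratio.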
